A study of Homo sapiens with 8 samples.

Results

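The AP-1 and BATF genes JUN, JUNB, JUND, FOS, FOSL2, BATF and BATF3 were examined in 6 peak lists, by taking every peak that overlapped 1 of 7 fixed stretches of the hg19 genome drawn around them. These windows span 460 kb together. They held 286 of the 224694 peaks on chromosomes 1 to 22 and X. NIPBL contributed 38 and 33 peaks (replicates 1 and 2), MED1 36 and 58, and SMC1A 57 and 64. All libraries were made from untreated GM12878 cells, an established lymphoblastoid line grown from B lymphocytes, with no mutation or treatment in any group. NIPBL loads the cohesin ring onto DNA, SMC1A is a subunit of that ring, and MED1 is a subunit of Mediator, which connects enhancers with RNA polymerase II. There were 2 ChIP-seq libraries for each protein, and the pool of 2 whole cell extract libraries was the control for all 6 lists. The labels do not tell whether replicates were separate cultures, and their spread may be technical. Cell identity was not checked because peak lists hold no expression values.

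AP-1 is a family of paired transcription factors with a leucine zipper. JUN proteins pair with each other or with FOS proteins, and the pairs bind short palindromes such as TGANTCA. JUN and FOS are classic immediate early genes, which are switched on within minutes of a growth signal. BATF and BATF3 lack the activation domains of FOS and pair with JUN proteins. In lymphocytes BATF pairs bind together with IRF4 or IRF8, and in mice BATF is needed for antibody class switching and BATF3 for a lineage of dendritic cells. In B cells transformed by Epstein-Barr virus, as lymphoblastoid lines are, BATF is known to be strongly expressed.

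Every window held all 3 proteins. A region is a merge of overlapping peaks of both replicates of a protein. The 7 windows held 24 NIPBL, 27 MED1 and 48 SMC1A regions, of 11635, 15007 and 51020 in the series. At least 1 NIPBL region lay in 7 of 7 windows, where 13.4% of all 65 kb stretches of the genome had one. For MED1 and SMC1A the same share of stretches was 16.7% and 52.3%. These stretches include DNA with few genes, so the comparison places the windows within the genome and not among genes. BATF had most NIPBL regions with 8, followed by JUNB with 5, JUND and BATF3 with 3 each, JUN and FOS with 2 each, and FOSL2 with 1. Per 100 kb the order was different, with 12.5 in JUNB, 8.42 in BATF, 7.5 in JUND, 5 in BATF3, 3.08 in FOS, 2.5 in JUN and 1.25 in FOSL2. Counts this small in neighbouring places of the order cannot be told apart.

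**Figure D1:**
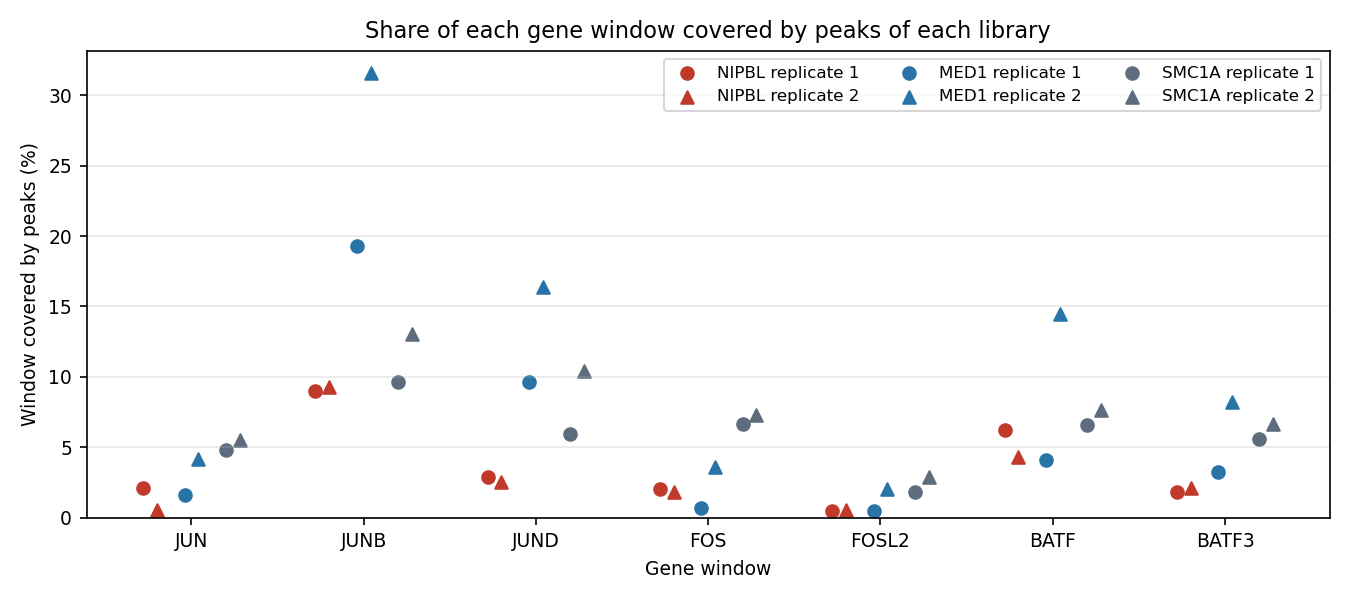
Share of each gene window covered by peaks (%, vertical axis) in each of the 6 libraries (circles replicate 1, triangles replicate 2). JUNB was the most covered window in all 6 libraries, up to 31.6% in MED1 replicate 2, and FOSL2 was the least covered in all 6, down to 0.464% in MED1 replicate 1.

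RefSeq promoters on build GRCh38.p14 were available for 6 of the 7 genes and show how the members differ in the DNA just upstream of their starts. BATF3 had no entry. The peaks are on hg19 and no positions were carried between builds, so these letters cannot be placed under a peak. The promoters of JUN, JUND, FOS and BATF are shown, 250 bases up to the annotated start and 5′ to 3′ on the gene's strand: JUN and JUND as promoters with a full 8-base element, FOS as one with a single short match, and BATF as the one with none. Capitals mark the letters TGACNTCA or TGACG on either strand.
JUN, chr1:58784048-58784297, minus strand: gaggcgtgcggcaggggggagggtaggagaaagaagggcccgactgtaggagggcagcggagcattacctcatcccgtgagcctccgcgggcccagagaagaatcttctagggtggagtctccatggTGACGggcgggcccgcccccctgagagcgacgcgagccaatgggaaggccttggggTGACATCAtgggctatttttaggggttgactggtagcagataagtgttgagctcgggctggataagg
JUND, chr19:18281623-18281872, minus strand: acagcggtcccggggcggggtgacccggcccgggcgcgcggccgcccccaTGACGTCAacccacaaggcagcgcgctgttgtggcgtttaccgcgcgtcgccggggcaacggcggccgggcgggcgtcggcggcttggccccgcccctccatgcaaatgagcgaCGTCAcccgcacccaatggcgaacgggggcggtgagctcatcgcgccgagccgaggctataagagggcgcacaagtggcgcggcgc
FOS, chr14:75278578-75278827, plus strand: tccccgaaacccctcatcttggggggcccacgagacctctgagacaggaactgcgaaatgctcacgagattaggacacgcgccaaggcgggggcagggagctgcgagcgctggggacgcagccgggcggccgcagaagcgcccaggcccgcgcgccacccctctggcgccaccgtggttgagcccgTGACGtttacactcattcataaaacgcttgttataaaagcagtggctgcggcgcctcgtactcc
BATF, chr14:75522219-75522468, plus strand: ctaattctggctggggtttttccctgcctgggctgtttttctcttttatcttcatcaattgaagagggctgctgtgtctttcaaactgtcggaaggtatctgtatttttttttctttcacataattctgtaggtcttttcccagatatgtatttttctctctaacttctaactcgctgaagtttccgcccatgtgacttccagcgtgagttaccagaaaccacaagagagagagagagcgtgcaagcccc

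The motifs were chosen after the promoters had been read, and a match is a description and not a binding site. The 5 letters TGACG, a part of the element bound by CREB and ATF proteins and by JUN pairs with ATF proteins, occurred on either strand in 5 of 6 member promoters, JUN, JUNB, JUND, FOS and FOSL2. In all 35116 promoters of the table the share was 21.2%, without matching for GC share. The 8 letters TGACNTCA, of which TGACGTCA also contains TGACG, occurred in JUN and JUND, against 6.87% of all promoters. JUN carried TGACATCA starting 67 bases before its start, and JUND carried TGACGTCA starting 200 bases before. The letters TGANTCA occurred in 0 of 6, against 6.57% of all. BATF had a GC share of 43.2% over these bases, while JUN, JUNB, JUND, FOS and FOSL2 had 62% to 74.8% and the median of all promoters was 58%.

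JUNB was the window with the densest binding, by regions per 100 kb and by share covered. The windows ran from 40 to 95 kb, and both measures depend on where the edges were drawn. JUNB is a JUN protein with weaker activating power than JUN and is expressed in many lymphoid cells. Its 40 kb on chromosome 19, from 12885 to 12925 kb, held 5 NIPBL, 7 MED1 and 7 SMC1A regions. Of all 40 kb stretches, 0.346%, 0.113% and 0.293% held as many regions of each protein. NIPBL peaks covered 9.02% and 9.26% of the window, MED1 peaks 19.3% and 31.6%, and SMC1A peaks 9.67% and 13.04%. The gap between the MED1 replicates was therefore wider than that between the NIPBL replicates. In the RefSeq order JUNB lies between HOOK2 and PRDX2, and no peak was assigned to a gene.

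The strongest NIPBL region at JUNB, from 12893060 to 12894267, held all 3 proteins. NIPBL fold enrichment, the authors' ratio of the library to its local control at the summit, was 8.78 and 6.24 there, and MED1 reached 10.6 and 21.2. These stood at the 98.4th and 91st percentile of the NIPBL lists and the 98.1st and 99th percentile of the MED1 lists. SMC1A was modest at 3.69 and 5.90, the 11.9th and 40.8th percentile. Behind these values stood 66 and 50 NIPBL fragments, 77 and 140 MED1 fragments and 27 and 29 SMC1A fragments at the summits. A similar site in the same window carried the strongest MED1 region of the window, 2013 bp wide from 12899298 to 12901310, with MED1 of 10.6 and 24.8. The NIPBL region inside it, from 12899438 to 12900191, had 6.93 and 4.61, and a further NIPBL region under the same MED1 region was weak at 2.84 and 2.93.

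The other JUNB regions with all 3 proteins were closer to the middle of the NIPBL lists. From 12904426 to 12904899 NIPBL had 4.98 and 4.04, inside a MED1 region of 3409 bp that was the widest of the 27. From 12889023 to 12889343 NIPBL had 3.96 and 3.94 and SMC1A 2.74 and 3.23, the 1.5th and 6.64th percentile of the SMC1A lists. By contrast, the strongest SMC1A region of the window ran from 12888327 to 12888847, its centre 0.6 kb from the centre of that NIPBL region. It had 24.3 and 26.6 and no NIPBL peak in either replicate. A MED1 peak in each replicate met it, at 2.45 and 10.1. The summit of the replicate 2 peak, at 12889207, lay outside this SMC1A region and inside the NIPBL region from 12889023. JUNB had 3 of the 6 MED1 regions wider than 2 kb in the windows, 22.2% of the 27, against 8.24% of all MED1 regions.

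JUND had strong MED1 with little SMC1A at its strongest sites. JUND is the JUN protein expressed most evenly across tissues and often opposes growth. Its 40 kb window on chromosome 19, from 18370 to 18410 kb, held 3 NIPBL, 4 MED1 and 6 SMC1A regions, numbers that 1.49%, 1.02% and 0.611% of 40 kb stretches reached. NIPBL peaks covered 2.89% and 2.57% of the window, MED1 peaks 9.67% and 16.4%, and SMC1A peaks 5.97% and 10.4%. The strongest NIPBL region, from 18402345 to 18402667, had 5.22 and 6.15. It lay in the strongest MED1 region, 2357 bp wide from 18401955 to 18404311, which had 7.26 and 18.6. SMC1A was called there in replicate 2 alone, at 4.72. The neighbouring NIPBL region from 18401207 to 18401577 had the same makeup, with NIPBL of 5.11 and 4.33, MED1 at 6.22 and 19.0, and SMC1A at 3.44 in replicate 2 alone.

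The other regions of the window differed from these. The single JUND region with all 3 proteins, from 18392694 to 18393207, had NIPBL of 4.98 in replicate 1 and 2.96 in replicate 2. These are the 78.1st and 8.1st percentile of their lists, so the replicates did not place it alike. The strongest SMC1A region, from 18390163 to 18391539, had 11.6 and 17.0, MED1 of 4.95 and 7.57, and a NIPBL peak of 3.59 in replicate 2 only. Further SMC1A regions of this window, from 18383215 to 18383572 and from 18388245 to 18388590, had 10.8 and 15.7, and 11.1 and 13.6, and met no peak of NIPBL or MED1.

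JUN, the founding member and the strongest activator among the JUN proteins, carried weak NIPBL. Its 80 kb window on chromosome 1, from 59210 to 59290 kb, held 2 NIPBL, 3 MED1 and 5 SMC1A regions, which 6.73%, 4.89% and 5.98% of 80 kb stretches reached. NIPBL gave 5 peaks in replicate 1 and 2 in replicate 2, and covered 2.09% and 0.589% of the window, while MED1 covered 1.59% and 4.19% and SMC1A 4.82% and 5.51%. The stronger NIPBL region, from 59280954 to 59281221, had 3.39 and 4.35, beside MED1 at 3.62 and 4.77 and SMC1A at 3.82 and 5.21. At its summits lay 22 and 23 NIPBL fragments. The other, from 59250944 to 59251572, had NIPBL of 3.56 and 3.56 beside SMC1A of 13.0 and 13.5, and the MED1 region that touched it was called there in replicate 2 alone.

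The strongest MED1 region at JUN, from 59249462 to 59251109, depended on the replicate. It had 3.80 in replicate 1 and 10.2 in replicate 2, the 49.4th and 91.6th percentile. The strongest SMC1A region, from 59234886 to 59235314, had 12.4 and 15.9 and met no NIPBL or MED1 peak. Its nearest NIPBL region lay 16.2 kb away, centre to centre.

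**Figure D2:**
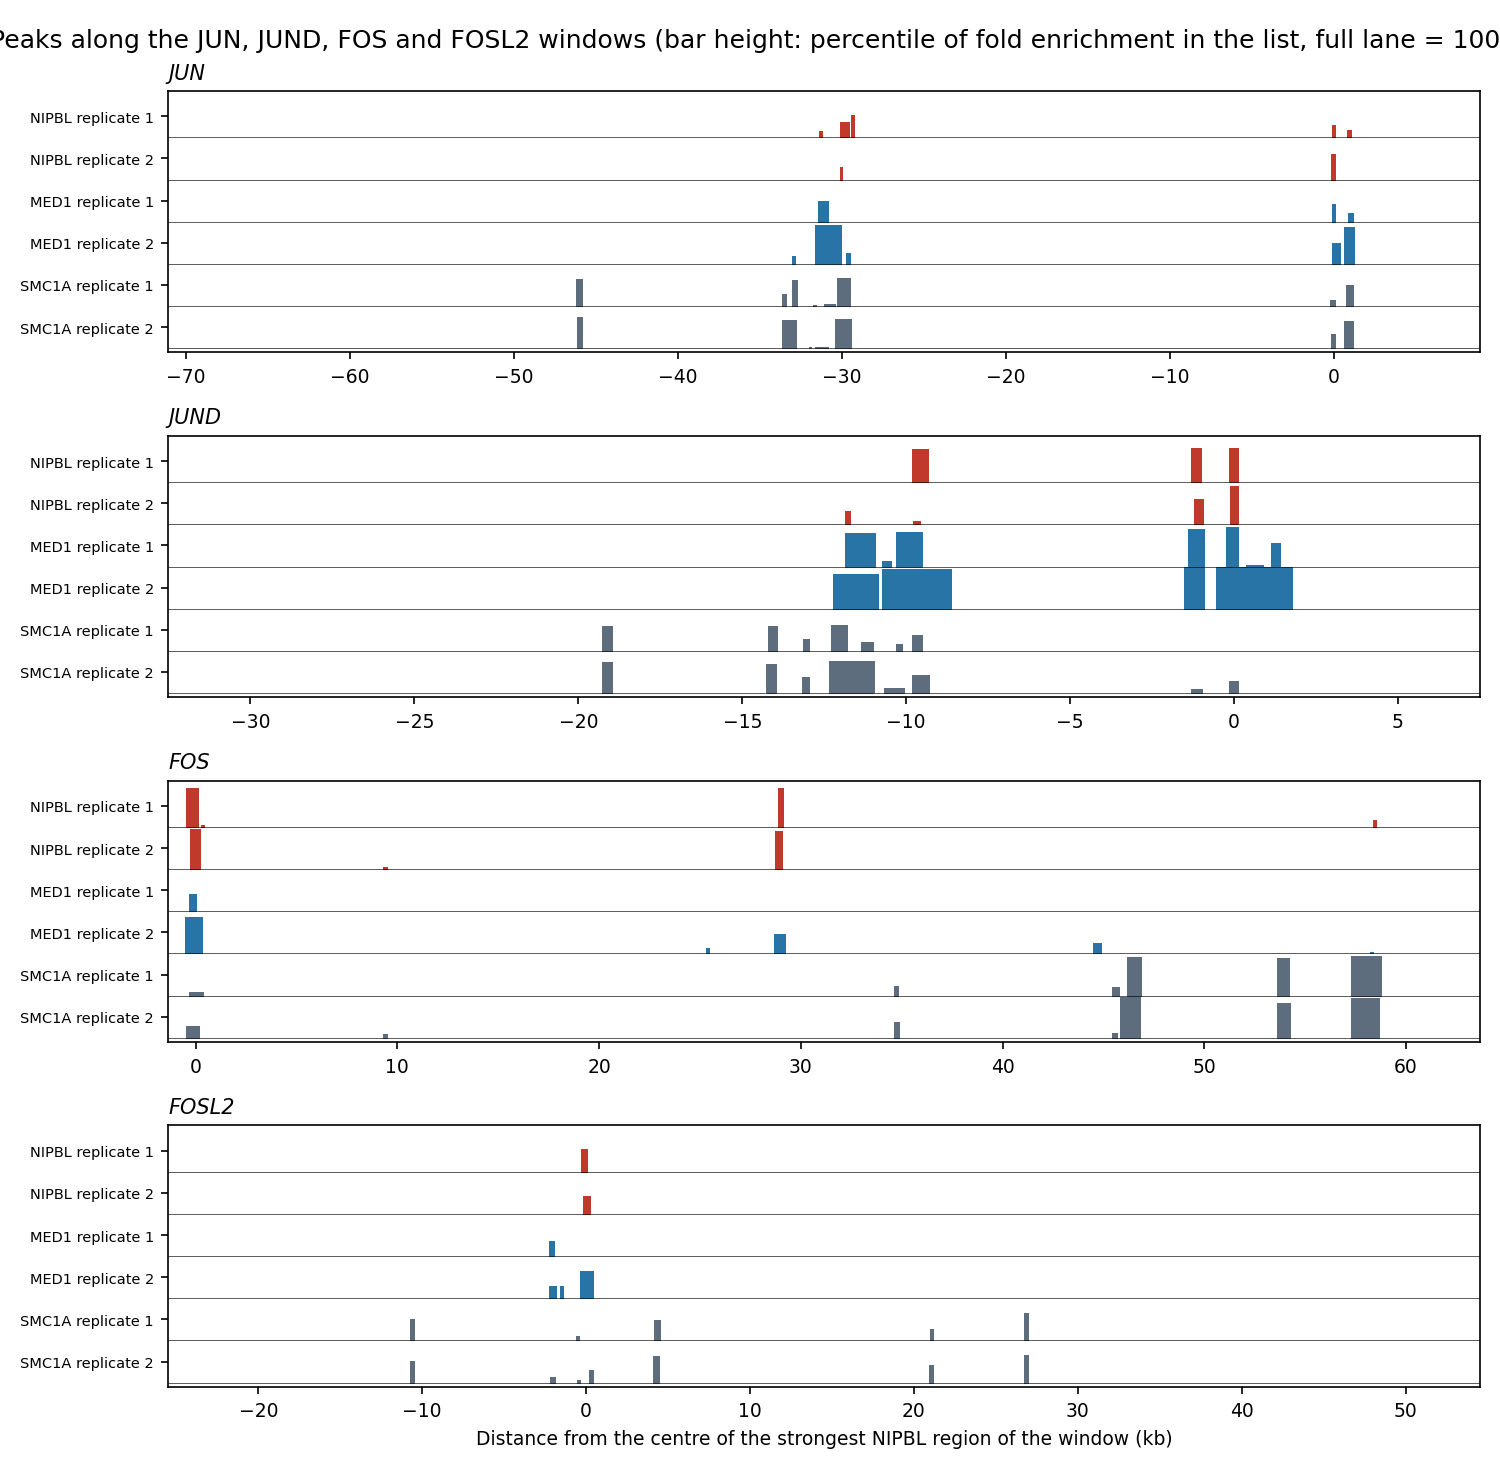
Peaks of the 6 libraries along the JUN, JUND, FOS and FOSL2 windows, as distance in kb from the centre of the strongest NIPBL region (horizontal axis). Bar width is the peak's width and bar height its percentile of fold enrichment within its own list, where a full lane is 100. In FOS the tall SMC1A bars stand apart from the tall NIPBL bars.

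FOS held strong NIPBL and strong SMC1A at different sites. FOS is the partner of JUN in the classic AP-1 pair. Its 65 kb window on chromosome 14, from 75715 to 75780 kb, held 2 NIPBL, 1 MED1 and 5 SMC1A regions. Of all 65 kb stretches, 5.5%, 16.7% and 3.72% reached these numbers. NIPBL peaks covered 2.08% and 1.85% of the window, MED1 peaks 0.677% and 3.59%, and SMC1A peaks 6.64% and 7.29%. Both NIPBL regions were strong, with mean percentiles of 94.1 and 90.6.

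The strongest, from 75715882 to 75716813 at the edge of the window, had NIPBL of 6.56 and 7.17 on 61 and 51 fragments. MED1 there was 3.58 and 8.41, and SMC1A 3.38 and 4.74, the 7.65th and 29th percentile of the SMC1A lists. The next NIPBL region, singled out after its values were seen, lay from 75745049 to 75745503. It had NIPBL of 6.24 and 6.06 on 73 and 61 fragments, a MED1 peak of 4.68 in replicate 2 alone and no SMC1A peak in either replicate. It was the only one of the 24 NIPBL regions without a MED1 or SMC1A region found in both replicates, 4.17%, against 15.2% of all NIPBL regions.

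SMC1A at FOS was among the strongest of the windows. The strongest SMC1A region, from 75761755 to 75763268, had 26.0 and 32.3 on 196 and 211 fragments, and no peak of NIPBL or MED1 in either replicate. Its nearest NIPBL region lay 17.2 kb away, centre to centre. From 75769935 to 75770647 SMC1A had 23.2 and 20.6, again alone. From 75773614 to 75775135 it had 27.2 and 28.4 on 218 and 225 fragments, with a NIPBL peak of 3.07 in replicate 1 and a MED1 peak of 2.69 in replicate 2, the 16.7th and 1.87th percentile of their lists.

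FOSL2, a FOS protein without a strong activation domain, had the sparsest NIPBL. Its 80 kb window on chromosome 2, from 28590 to 28670 kb, held 1 NIPBL, 1 MED1 and 5 SMC1A regions, reached by 15.5%, 19.2% and 5.98% of 80 kb stretches. NIPBL peaks covered 0.489% and 0.576% of the window, MED1 peaks 0.464% and 2.03%, and SMC1A peaks 1.83% and 2.87%. NIPBL, from 28615195 to 28615776, had 4.01 and 3.91 on 32 and 31 fragments, close to the middle of both lists. A MED1 peak of 5.70 met it in replicate 2 alone. An SMC1A region touched its edge, and an SMC1A peak of 4.77 on 33 fragments overlapped it in replicate 2 alone. MED1 found in both replicates lay 2.02 kb away, centre to centre, from 28613203 to 28613738, at 3.43 and 3.96. The strongest SMC1A region, from 28642181 to 28642530, had 12.6 and 12.4 and met no NIPBL or MED1 peak.

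BATF held the most regions of every protein. Its 95 kb window on chromosome 14, from 75950 to 76045 kb, held 8 NIPBL, 8 MED1 and 13 SMC1A regions. Only 0.429%, 0.642% and 0.219% of 95 kb stretches held as many. NIPBL peaks covered 6.20% and 4.32%, MED1 peaks 4.09% and 14.5%, and SMC1A peaks 6.58% and 7.63%. MED1 replicate 2 gave 23 peaks and replicate 1 gave 9. BATF lies between JDP2 and FLVCR2 in the RefSeq gene order.

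No NIPBL peak at BATF stood in the highest 10% of its list, 0 of 14 in replicate 1 and 0 of 11 in replicate 2. By construction 10.0% of each whole list stands there, and with so few peaks 0 cannot be told apart from that share. JUN and FOSL2 had no such NIPBL peak either. The best of the 8 regions, from 76005815 to 76006275, had 5.78 and 5.10, the 88.3rd and 77.6th percentile, on 32 and 25 fragments. The MED1 peaks that met it had 4.38 and 8.15, with the replicate 2 summit at 76006695, beyond the end of the region. The SMC1A peaks that met it had 3.32 and 3.44. The region from 75965414 to 75965792 had NIPBL of 5.10 and 4.89, beside MED1 at 5.60 and 11.5 and SMC1A at 5.42 and 5.18. Its nearest MED1 summit lay 17 bp and its nearest SMC1A summit 4 bp from a NIPBL summit, so the 3 proteins peaked together.

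The strongest MED1 region of the window was broad. It ran for 2656 bp from 75980778 to 75983433, with MED1 of 5.93 and 15.1, NIPBL of 4.60 and 5.14 and SMC1A of 4.19 and 4.90. From 75988641 to 75988963 NIPBL had 4.46 and 4.38, MED1 5.84 and 10.4 and SMC1A 3.83 and 4.85. The last BATF region with all 3 proteins, from 75953694 to 75954374, had NIPBL of 5.28 and 2.77. With percentiles of 82.8 and 4.19 it showed the widest disagreement between NIPBL replicates among the 24 regions.

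SMC1A at BATF was strong at a few sites. The strongest SMC1A region, from 76027086 to 76027698, had 21.6 and 27.1 on 153 and 190 fragments. Unlike the strong SMC1A sites at FOS it held a NIPBL region found in both replicates, at 4.30 and 4.75, with MED1 of 6.76 in replicate 2 alone. Strong SMC1A also lay from 76044003 to 76044872, at 19.8 and 25.2 with no NIPBL peak, and from 75955016 to 75955528, at 18.3 and 23.98 with a NIPBL peak of 2.49 in replicate 1 alone.

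BATF3, a close relative of BATF, had the strongest single NIPBL peak of all windows in replicate 1. Its 60 kb window on chromosome 1, from 212840 to 212900 kb, held 3 NIPBL, 3 MED1 and 7 SMC1A regions, reached by 2.48%, 3.44% and 0.934% of 60 kb stretches. NIPBL peaks covered 1.803% and 2.098% of the window, MED1 peaks 3.22% and 8.21%, and SMC1A peaks 5.62% and 6.67%. All 3 NIPBL regions held MED1 and SMC1A. The strongest, from 212851912 to 212852610, had NIPBL of 10.2 and 5.46 on 89 and 52 fragments, the 99.3rd and 83.3rd percentile. The strongest MED1 region, from 212851419 to 212852745, covered it with 6.36 and 13.3, while SMC1A had 4.50 and 4.97.

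The strongest SMC1A region at BATF3 had the reverse makeup. From 212871835 to 212873250 SMC1A had 18.1 and 19.6, where NIPBL reached 3.19 and 3.73 with MED1 at 4.35 and 7.57. The remaining NIPBL region, from 212856596 to 212856919, was the weakest of the 24 by mean percentile, at 2.87 and 2.61.

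**Figure D3:**
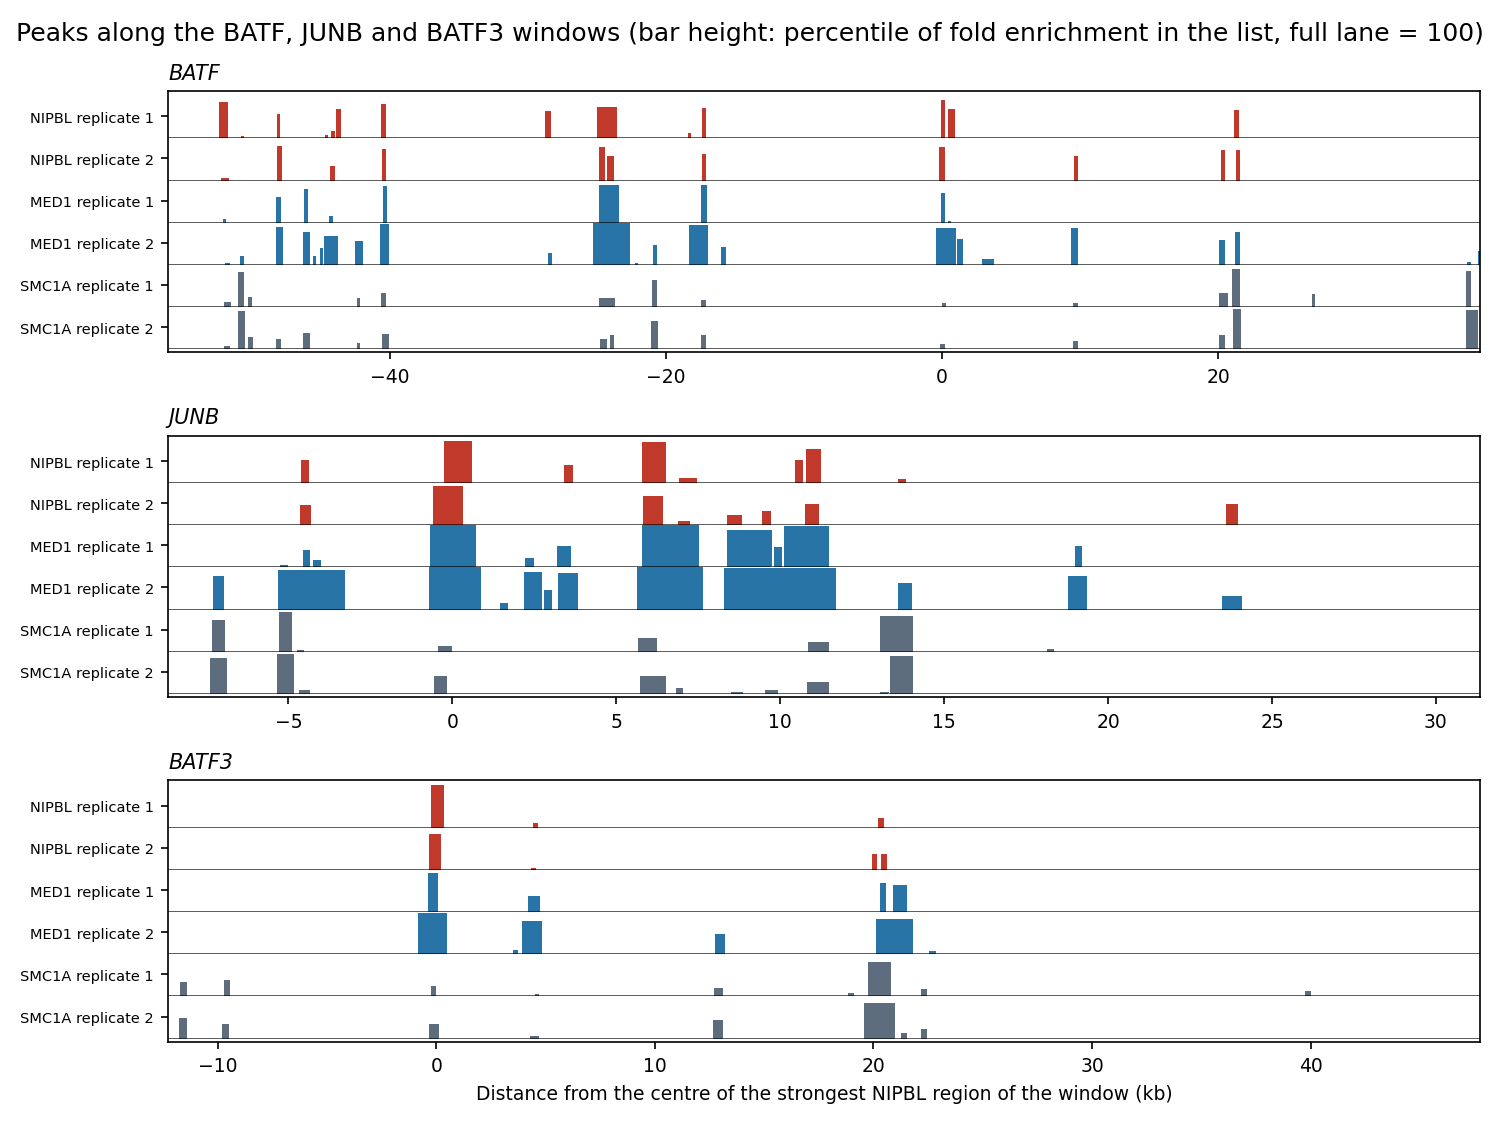
Peaks of the 6 libraries along the BATF, JUNB and BATF3 windows, as distance in kb from the centre of the strongest NIPBL region (horizontal axis). Bar width is the peak's width and bar height its percentile of fold enrichment within its own list, where a full lane is 100. NIPBL bars mostly sit on MED1 bars, and SMC1A bars at the strongest NIPBL region of each of the 3 windows stay below the middle of their lists.

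Across the 7 windows NIPBL mostly lay on MED1. MED1 regions overlapped 21 of the 24, 87.5% (exact Clopper-Pearson 95% interval 67.6 to 97.3, counting error only), against 70.2% of all NIPBL regions. SMC1A regions overlapped 18, 75% (53.3 to 90.2), against 62.4% of all. Both partners were held by 16, 66.7% (44.7 to 84.4), against 47.8%. All 3 intervals cover the share of the series, so a difference was not detectable with 24 regions, and neighbouring regions are not independent. All 24 met a peak of MED1 replicate 2, also the 3 without a MED1 region, against 93.8% of all NIPBL regions. None of the 24 lay away from every MED1 and SMC1A peak, which allows a share of up to 12.5% by a limit of 3 counts and up to 14.2% by the exact interval, and in the series that share was 1.65%.

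Seen from the partners, the windows held more NIPBL than the series as a whole. NIPBL lay in 20 of 27 MED1 regions, 74.1% (53.7 to 88.9), against 49.3% of all MED1 regions. Both NIPBL and SMC1A were found at 16 of the 27, 59.3%, against 34.5%. NIPBL lay in 18 of 48 SMC1A regions, 37.5% (23.95 to 52.6), against 14.3% of all. MED1 was met by 20 of the 48, 41.7% (27.6 to 56.8), against 17.5%. SMC1A regions with both partners numbered 16, 33.3%, against 11.0% of all, those with NIPBL and no MED1 2, against 3.28%, and those with MED1 and no NIPBL 4, against 6.43%. SMC1A regions without a NIPBL or MED1 region found in both replicates numbered 26, 54.2% (39.2 to 68.6), against 79.2% of the series. Fewer, 15 of the 48 or 31.25%, met no NIPBL or MED1 peak in either replicate, against 66.9% of the series. No test over regions was made. The intervals are for counting error only, and neighbouring regions are not independent. The comparison is with every region of the series and not with regions near other genes.

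**Figure D4:**
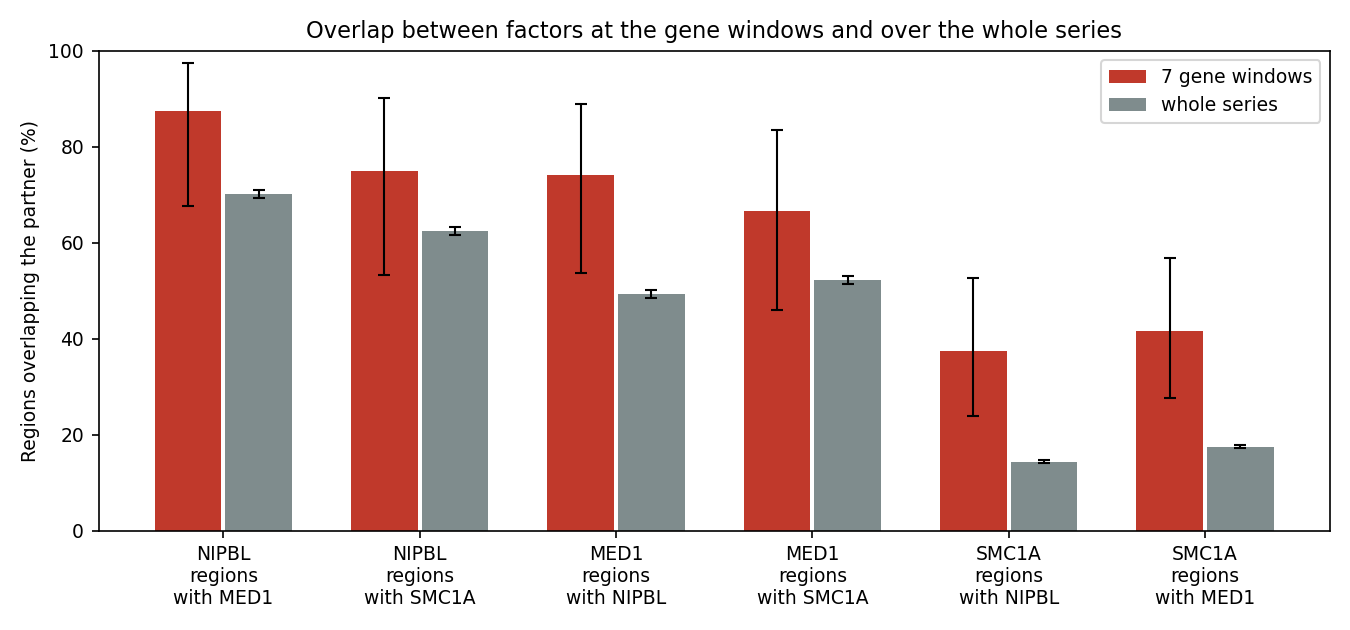
Share of regions that overlap a partner (%, vertical axis) in the 7 windows (red) and in the whole series (grey), with exact 95% binomial intervals for counting error. Red stands above grey in all 6 pairs, and its intervals are wide because the windows hold 24 NIPBL, 27 MED1 and 48 SMC1A regions.

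The level of SMC1A differed between sites with different partners. Partners here are regions found in both replicates, and of the 26 SMC1A regions with neither, 15 met no NIPBL or MED1 peak at all. The 16 SMC1A regions with NIPBL and MED1 had median fold enrichments of 4.01 and 4.93, against 9.78 and 11.6 at the 26 with neither. The ranges overlapped, at 2.48 to 18.1 against 3.33 to 27.2 in replicate 1. In replicate 2 they were 3.08 to 19.6 against 3.55 to 32.3. Over the series these medians were 4.37 and 5.32 with both, and 11.5 and 12.9 with neither. The 2 with NIPBL and no MED1 had medians of 12.6 and 15.2, against 14.9 and 17.4 in the series, and the 4 with MED1 and no NIPBL had 10.0 and 14.5, against 4.38 and 5.14. Of the 10 SMC1A regions with a mean percentile over 75, 2 held NIPBL, at BATF and BATF3. In the series 7.87% of such strong SMC1A regions did. SMC1A peaks of the windows had a median percentile of 29.1 and 33.1 in their lists.

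NIPBL and MED1 peaks of the windows stood near the middle of their lists. The median percentile was 55.4 and 56.8 for NIPBL and 53.03 and 60.5 for MED1, where the median over a whole list is close to 50 by construction. In the highest 10% of their list stood 5 of 38 and 3 of 33 NIPBL peaks, 5 of 36 and 12 of 58 MED1 peaks, and 3 of 57 and 5 of 64 SMC1A peaks. By construction these are 10.0% of each whole list, and 9.99% of SMC1A replicate 1. The NIPBL peaks in the highest 10% lay at JUNB, FOS, JUND and BATF3. With 2 libraries for each protein, an exact permutation test over libraries could not give less than 0.333, and none was made.

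**Figure D5:**
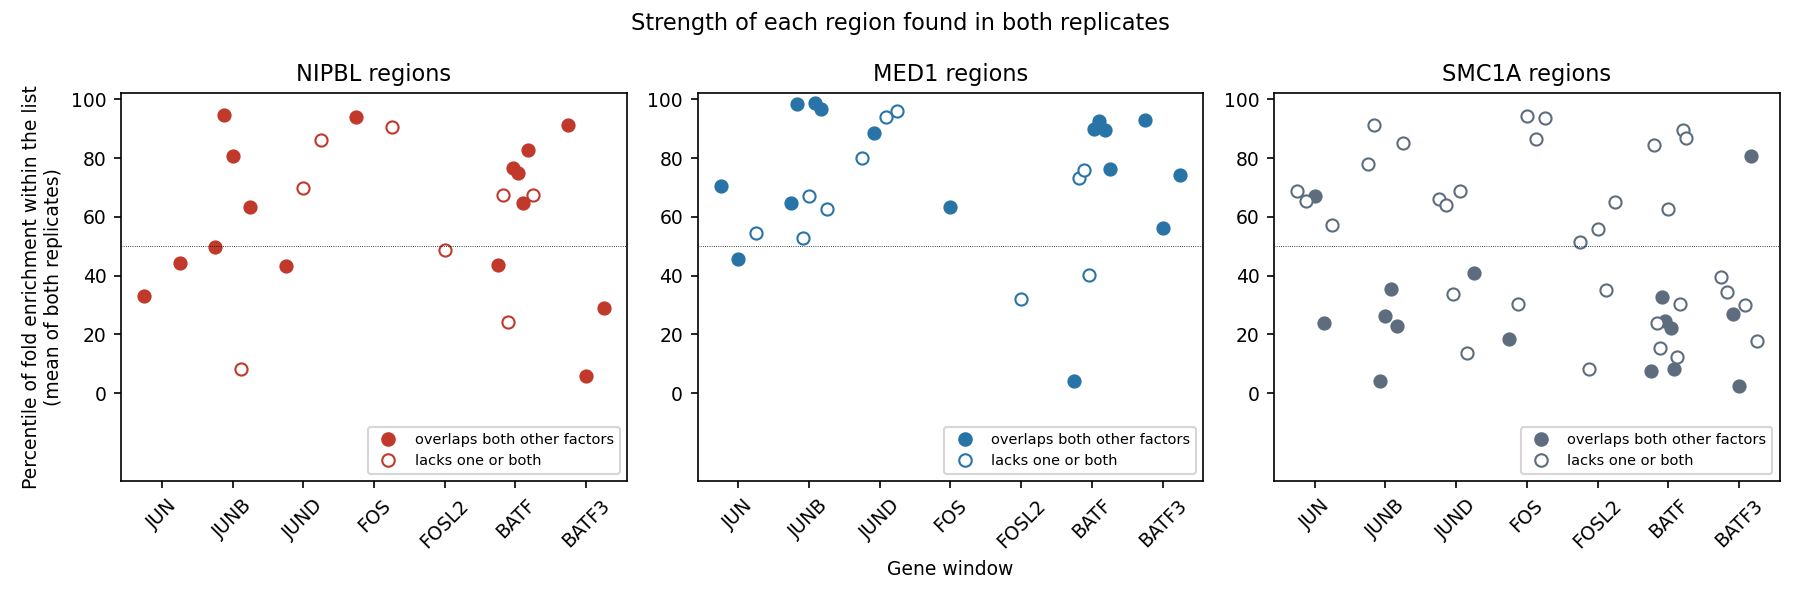
Mean percentile of fold enrichment over both replicates (vertical axis) of each region found in both replicates, by gene window and protein. Filled points overlap both other proteins and open points lack 1 or both. The highest SMC1A points are mostly open. The highest NIPBL points at JUN, JUNB, FOS, BATF and BATF3 are filled, while those at JUND and FOSL2 and the other NIPBL point at FOS are open.

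Replicates agreed to different degrees. Of the NIPBL peaks in the windows, 25 of 38 in replicate 1 and 25 of 33 in replicate 2 met the other replicate, 65.8% and 75.8%, against 55.6% and 79.3% of the whole lists. All 36 peaks of MED1 replicate 1 met replicate 2, against 99.0% of the list, while 27 of 58 met the other way, 46.6% against 33.5% of the list. For SMC1A the shares were 93.0% and 81.2%, against 92.0% and 75.6%. Between replicates the percentile of a region differed by a median of 9.45 points for NIPBL, 9.23 for MED1 and 6.26 for SMC1A, against 14.5, 22.4 and 6.44 over the series.

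At 18 of the 24 NIPBL regions the nearest MED1 summit was at most 200 bp from a NIPBL summit, against 65.8% of all NIPBL regions. At 15 of the 24 the nearest SMC1A summit was, against 59.6% of all. At BATF these distances were 2 bp for MED1 in the regions from 75957891 and from 75988641. At the second FOS region they were 29031 bp for MED1 and 5744 bp for SMC1A, counting peaks of regions found in both replicates.

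Other genes of the family that were looked at had between 0 and 3 NIPBL regions. FOSB, FOSL1, JDP2, ATF3 and BATF2 were given windows from general knowledge of where they lie on hg19. In that order the windows were 35, 30, 60, 75 and 30 kb long. No share of equal stretches is given for them, so their counts do not rank them against the members. Their chromosome and gene order matched a RefSeq table of another build, and no annotation of hg19 was used to check the edges. ATF3 had 3 NIPBL, 5 MED1 and 6 SMC1A regions. FOSB had 1, 1 and 3. FOSL1 had 0, 4 and 5, JDP2, which lies between FOS and BATF, had 0, 1 and 2, and BATF2 had 0, 0 and 1. A NIPBL peak of a single replicate was present at each of the 3 genes without a NIPBL region, with 1 and 0 peaks at FOSL1 and BATF2 and 0 and 1 at JDP2 (replicates 1 and 2).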

How the data were processed

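ChIP-seq peaks of NIPBL, MED1 and SMC1A in GM12878 cells were analysed, with 2 libraries each. Fixation was in 1% formaldehyde for 10 min, per the labels' protocols. Trimmomatic 0.33, BWA 0.7.12 and MACS2 2.1.0 and build hg19 are listed in the submitters' processing notes, without settings. Peaks were called per library, per the labels, with both whole cell extracts as control. The deposited fold enrichment is the authors' ratio at the summit. Deposited −log10 p-values and −log10 q-values served for alternatives and depth, the deposited score was not used, and the deposited summit offset gave summits. Read totals were not used here, so fragments at summits were solved from fold and p within 0.01 of the −log10 p, for 286 of 286 peaks. They ran from 11 to 225. A shared overlap is at least 1 bp, percentiles are ranks of fold enrichment within a list, and positions are 1-based. Regions named are the strongest of each protein in each window and every region with all 3 proteins in the windows with most NIPBL regions, 4 windows because JUND and BATF3 tied. Other regions named were chosen after their values were seen. The members, windows and lists were chosen with earlier results of these data known. Python 3.11.15, pandas 2.3.3 and scipy 1.17.1 were used, and region and fragment steps were tested on simulated data.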

Additional observations from a re-analysis of the deposited data

How the results depend on the processing

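Of 69 recomputed values over 8 results, 52 stayed within 1.5 times of a count, within a share's interval or within the replicate SD of a percentile, and 17 moved. Some of the 52 could not move. The median of 1 library always lies within the replicate SD of the mean of both. The share with MED1 does not use the SMC1A libraries, and the share with SMC1A does not use the MED1 libraries. Regions found in either replicate numbered 45 for NIPBL and 58 for MED1, and 97.8% of NIPBL regions then held MED1. With equal numbers of top peaks SMC1A regions fell to 11, the share of NIPBL regions with SMC1A to 9.52% and the SMC1A median percentile moved to 44.7, and this setting removes most SMC1A peaks by construction. Leaving out 1 library at a time gave 33 to 38 NIPBL regions, 36 to 58 MED1 regions and 57 to 64 SMC1A regions. Every peak of the remaining library then counted as a region, so these are the single-library peak counts given above. The same step gave 78.8% to 100% of NIPBL regions with MED1, where 100% was reached without MED1 replicate 1. With SMC1A it gave 65.8% to 91.7%, where 91.7% was reached without SMC1A replicate 1. With summits at most 200 bp apart the shares with MED1 and SMC1A were 73.9% and 56.5%. With −log10 q of at least 5 they were 82.4% and 58.8%. All of these lay within the intervals of the shares first given. Median percentiles without 1 library were 55.4 to 56.8 for NIPBL, 53.03 to 60.5 for MED1 and 29.1 to 33.1 for SMC1A. These medians likewise repeat the single-library values. With −log10 q of at least 5 the medians were 49.9 for NIPBL, 65.9 for MED1 and 27.8 for SMC1A. With windows widened by 20 kb they were 53.8 for NIPBL and 34.2 for SMC1A, and ranked by −log10 p they were 58.2 for NIPBL and 35.5 for SMC1A. The cause of these moves was not tested. No paired analysis was possible because the results come from no test.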
